A study of Mus musculus with 2 samples.

Results

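The aminoacyl-tRNA synthetases of C2C12 cells are described here from 1 WT library and 1 library of Gne KO cells. The members were 39 genes named by symbol: 20 cytosolic enzymes, 16 mitochondrial enzymes and 3 proteins that hold the multi-synthetase complex together. All 39 were found, under the symbols listed, among 21829 genes in all, and all 39 passed the filter of a mean of at least 1 FPKM. They were chosen by name, with earlier results of these data known. C2C12 is an immortalised line of mouse myoblasts, and both lines were grown as myoblasts in serum-containing medium. The KO line was made from C2C12 by transfection of Cas9 and a guide against Gne, which left an indel and a premature stop codon in an early exon, and edited cells were isolated as single cells. A difference between the libraries can therefore belong to the clone, to the culture or to Gne, and these cannot be told apart. Gne encodes the enzyme that starts sialic acid synthesis.

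A synthetase joins an amino acid to the tRNAs that decode it, and the charged tRNA then delivers that amino acid to the ribosome. Mammalian cells keep separate sets of these enzymes for the cytosol and for mitochondria, all encoded in the nucleus, and Gars and Kars supply both compartments from 1 gene each. Several cytosolic enzymes sit in the multi-synthetase complex, while the others act outside it. Lack of an amino acid leaves tRNA uncharged, which activates the kinase GCN2 and, through it, the transcription factor ATF4, which raises many cytosolic synthetase genes. In muscle the family is known from inflammatory myopathies, in which antibodies against histidyl-tRNA synthetase and some of its relatives are found, and from mitochondrial myopathies with mutations in genes such as Yars2.

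The deposited values name no unit and were taken as FPKM, which scale the fragments of a gene by its length and by the size of the library, and 1 library per line means that no difference below has a replicate check and none was tested. Differences are given as log2((KO + 1)/(WT + 1)), where the added 1 makes differences of weakly expressed genes look smaller, and levels of different genes are compared only in FPKM, which is per length. The libraries summed to 568543 FPKM in WT and 574253 FPKM in KO, with an unknown number of reads. The median difference of the 10542 genes past the filter was 0.0061 on the log2 scale. Gne itself was 6.67 FPKM in WT and 7.34 FPKM in KO, so its RNA level does not tell which library carries the edit. Of 10 myoblast markers, 8 passed the filter, and these 8 summed to 297 FPKM in WT and 106 FPKM in KO. Of the 8, 2 were higher in KO and 6 lower, and 4 of the 6 were past 2-fold. Des was 97.62 FPKM in WT and 3.84 FPKM in KO, Cdh15 16.61 and 0.701 FPKM, and Chrna1 15.33 and 0.917 FPKM. Itga7 was 47.44 and 28.35 FPKM, Ncam1 14.72 and 12.985 FPKM, and Cdh2 36.025 and 38.863 FPKM. Myod1 was at 59.97 FPKM in WT and listed at 0 in KO, Pax7 was listed at 0 in both, and Myf5 was 9.14 and 20.3 FPKM. Of 5 fibroblast markers, 2 passed the filter, Pdgfra at 10.8 and 12.3 FPKM and Col1a1 at 9.66 and 273 FPKM. Dcn, at 0.272 and 1.68 FPKM, did not pass, and Thy1 and Lum were listed at 0 in both libraries. Of 4 macrophage markers Cd68 passed, at 2.85 and 1.06 FPKM, and of 3 adipocyte markers Pparg passed, at 10.2 and 9.31 FPKM. None of the 3 endothelial or the 3 epithelial markers passed, and Ptprc, Adgre1, Cdh5, Kdr, Adipoq, Plin1 and Epcam were listed at 0 in both libraries. The part of this shift in the differences below was not tested, and in bulk RNA fewer cells of a type and less RNA per cell cannot be told apart.

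Promoter sequences came from RefSeq on GRCm38.p6, as windows of 300 bases from 250 before to 50 after the start of a transcript, and 30 of the 39 members had one. They were searched on both strands for TGATGNAA, the core of the element to which ATF4 binds with its C/EBP partners. Of all 27025 genes in the table, 4.51% had this motif. It was present in 5 of the 13 cytosolic enzymes matched, in 0 of the 14 mitochondrial enzymes and in 0 of the 3 scaffold proteins. The 5 were Aars, Gars, Iars, Tars and Yars, and all 5 belong to the 12 enzymes that are commonly listed as raised by ATF4, 8 of which were matched. The stretches are shown because these genes share the element and can be read against their RNA levels below. Each runs 5′ to 3′ in the direction of the gene, ends at most 30 bases past the transcript start, and has the motif in capitals, read as TGATGNAA or as its reverse complement. The stretch of Aars lies at chr8:111033704-111033871 on the plus strand, with motifs at bases -112 to -105 and 10 to 17, counted from 1 at the first base of the transcript. That of Gars lies at chr6:55037945-55038004 on the plus strand, with the motif at -30 to -23. That of Iars lies at chr13:49682111-49682159 on the plus strand, with the motif at 8 to 15. That of Tars lies at chr15:11399640-11399699 on the minus strand, with the motif at -15 to -8, and that of Yars at chr4:129189880-129189932 on the plus strand, with the motif at 4 to 11.
Aars: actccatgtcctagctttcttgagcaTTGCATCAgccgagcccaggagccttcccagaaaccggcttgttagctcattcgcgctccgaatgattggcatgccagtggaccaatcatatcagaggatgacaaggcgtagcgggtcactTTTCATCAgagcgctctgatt
Gars: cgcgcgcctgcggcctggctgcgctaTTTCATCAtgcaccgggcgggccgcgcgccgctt
Iars: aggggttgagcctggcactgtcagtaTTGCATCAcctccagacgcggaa
Tars: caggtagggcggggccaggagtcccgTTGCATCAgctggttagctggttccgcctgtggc
Yars: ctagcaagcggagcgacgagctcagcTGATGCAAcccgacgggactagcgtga
A match is a run of letters and does not show that a factor binds there.

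Most of the family had nearly the same RNA level in both libraries. Past 2-fold, 0 members were higher in KO and 1, Farsa, was lower, against 2.84% and 3.43% of the 10542 genes. Past 1.5-fold, 1 member was higher, Aars, and 1 was lower, again Farsa, against 7.68% and 7.5% of all genes. The members' median was -0.064 on the log2 scale. Of the 39 members, 24 had a lower value in KO and 15 a higher one, where 49.3% of all genes past the filter were lower. On the scale with the pseudocount, less than 1.25-fold separated the libraries for 33 of 39 members, against 65.2% of all genes past the filter. Pars2, with a ratio of 1.32 without the pseudocount, is among the 33. The middle 50% of all genes ran from -0.21 to 0.23, and 27 members lay inside it. Genes in the range of levels of the cytosolic enzymes had a narrower middle 50%, from -0.17 to 0.20.

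**Figure D1:**
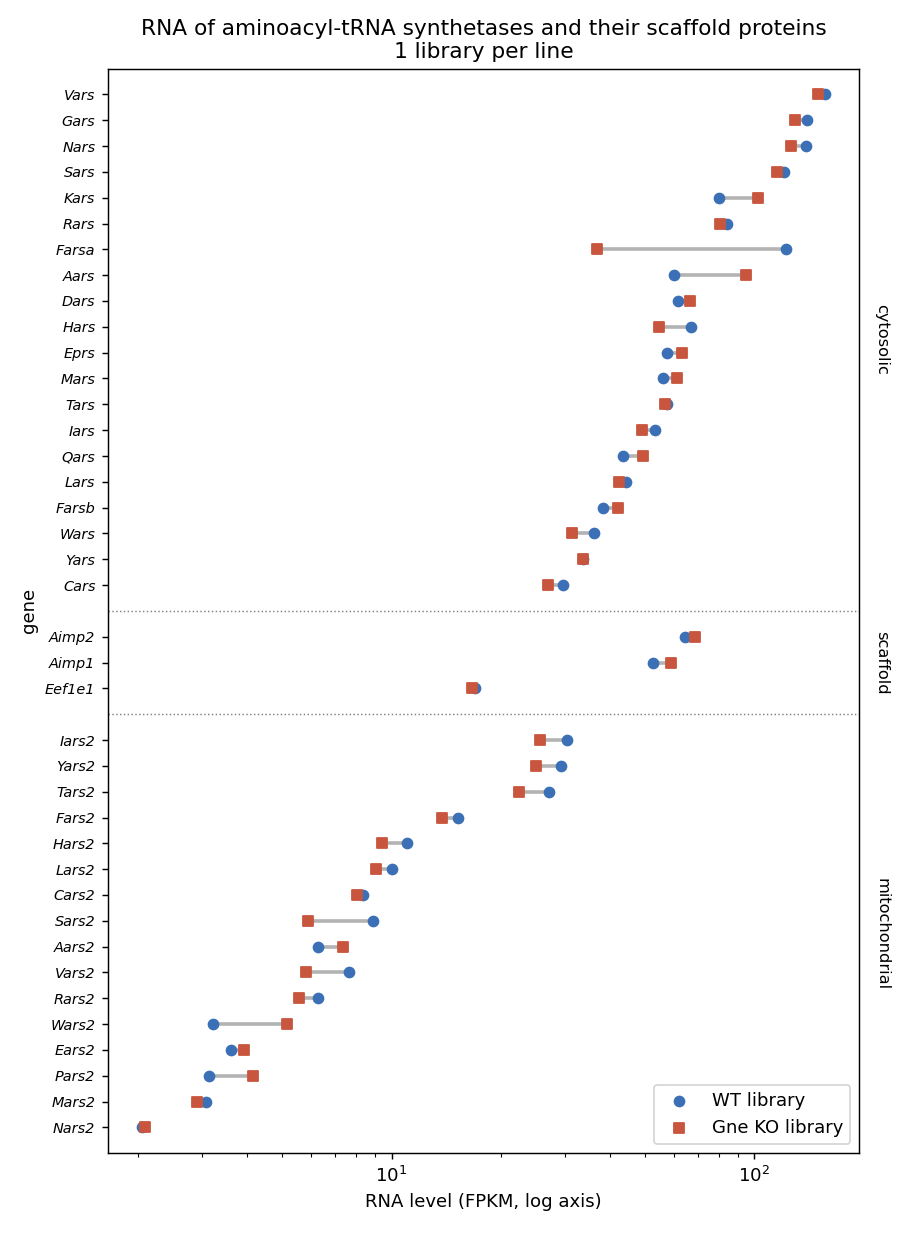
RNA level in FPKM on a log axis for each of the 39 members, with the WT library as a circle and the KO library as a square, ordered within each subgroup by mean level. The symbols of most genes lie close together, and the line between them is longest for Farsa, which goes from 122 FPKM in WT to 36.9 FPKM in KO.

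The cytosolic phenylalanyl-tRNA synthetase is the exception within the family, because its subunits parted. The enzyme is a tetramer of alpha subunits from Farsa, which hold the catalytic site, and beta subunits from Farsb, which edit wrongly charged tRNA. Farsa was 122 FPKM in WT and 36.9 FPKM in KO, a ratio of 0.302 and a log2 difference of -1.70. Among the 39 members it ranked 4 by level in WT and 19 in KO. Farsb was 38.2 FPKM in WT and 42.0 FPKM in KO, a log2 difference of 0.13. The Farsa level was thus 3.20 times that of Farsb in WT and 0.878 times in KO. Fars2, the single-chain mitochondrial enzyme for the same amino acid, was 15.3 and 13.8 FPKM, a log2 difference of -0.14. Of all 10542 genes past the filter, 136 had a lower log2 difference than Farsa, or 1.29%.

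The promoters of both subunit genes are shown because their RNAs differed in opposite directions. Each is printed from 250 bases before the transcript start to 30 after it, with every CG in capitals. That of Farsa, at chr8:84856736-84857015 of GRCm38.p6 on the plus strand, has 14 CG, and that of Farsb, at chr1:78488868-78489147 on the minus strand, has 10, where the median of all promoters of this length is 6. At least as many CG were found in 34.0% of all promoters for Farsa and in 41.5% for Farsb. TGATGNAA is in neither.
Farsa: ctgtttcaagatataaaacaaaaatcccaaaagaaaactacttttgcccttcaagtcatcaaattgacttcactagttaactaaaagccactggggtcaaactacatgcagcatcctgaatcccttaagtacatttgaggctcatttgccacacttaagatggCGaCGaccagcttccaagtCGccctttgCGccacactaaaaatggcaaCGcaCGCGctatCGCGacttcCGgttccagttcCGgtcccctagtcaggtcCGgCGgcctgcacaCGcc
Farsb: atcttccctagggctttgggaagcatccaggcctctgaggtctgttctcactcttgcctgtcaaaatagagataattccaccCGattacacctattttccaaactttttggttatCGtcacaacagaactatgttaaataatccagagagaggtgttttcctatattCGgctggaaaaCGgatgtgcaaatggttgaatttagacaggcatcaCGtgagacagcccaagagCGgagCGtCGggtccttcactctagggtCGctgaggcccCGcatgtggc

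In GENCODE vM39 (GRCm39) the Farsa gene occupies bases 85583610 to 85595887 of chromosome 8, on the plus strand. All 67 other genes past the filter within 5 Mb of its start were lower in KO, and 54 of them were past 2-fold. Their median log2 difference was -1.45, and 12 of the 67 had a lower value than Farsa. Calr, the nearest gene past the filter on one side, was 837 FPKM in WT and 492 FPKM in KO, and Gcdh, the nearest on the other, was 18.9 and 5.31 FPKM. After subtraction of the median of these neighbours, Farsa was at -0.25. Farsb lies on chromosome 1, where the median of its 48 neighbours was 0.030. Farsa was thus one of a long run of genes that were lower in KO, while Farsb was not.

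Aars and Kars, the other members with a position on the same chromosome beside Cars2, stood on the other side of the family. Aars, the alanyl enzyme, lies at 111754391 to 111784296 on the plus strand, and Kars, the lysyl enzyme of the complex, at 112719747 to 112738004 on the minus strand. Aars was 60.2 FPKM in WT and 94.8 FPKM in KO, a ratio of 1.58 and a log2 difference of 0.65, and it moved from rank 11 to rank 6 among the members. Of all genes past the filter, 6.24% had a higher difference. Kars was 80.0 and 102 FPKM, a log2 difference of 0.35. Within 5 Mb of Aars, 50 of 59 genes past the filter were higher in KO, with a median of 0.27, and 5 had a higher value than Aars. Within 5 Mb of Kars, 45 of 52 were higher, with a median of 0.28, and 23 had a higher value than Kars. After subtraction of these medians, Aars was at 0.38 and Kars at 0.070. Cars2, the mitochondrial cysteinyl enzyme, lies far from these genes on chromosome 8, and at 8.35 and 8.02 FPKM its log2 difference was -0.052. No member was past 1.5-fold once the median of its neighbours was subtracted, where 6.56% of all genes with neighbours were higher and 5.81% lower by that measure. The cause of the shifts along the chromosome was not tested.

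**Figure D2:**
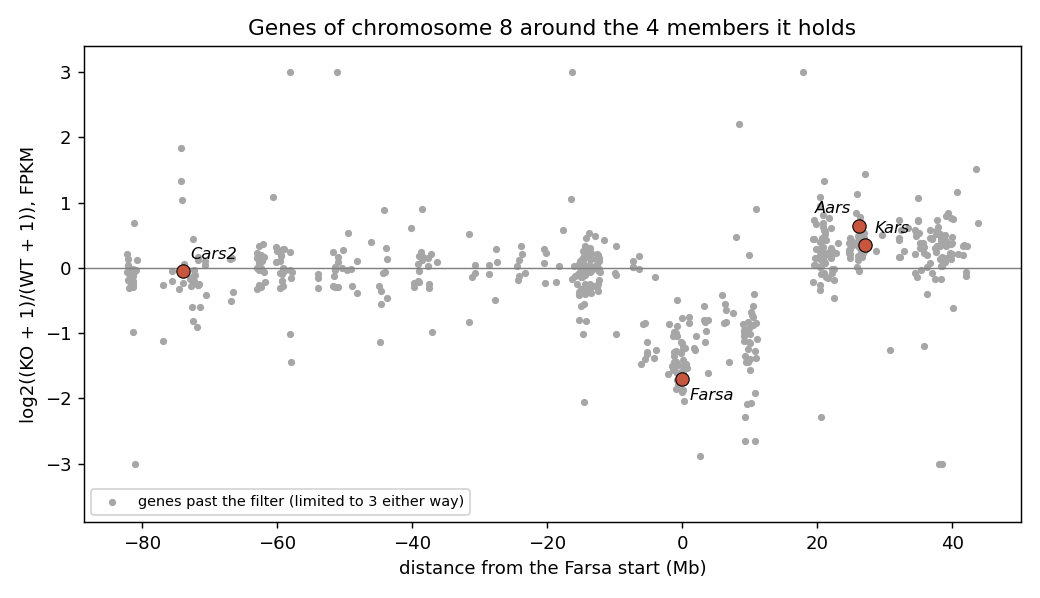
Log2((KO + 1)/(WT + 1)) of the genes of chromosome 8 past the filter, plotted against the distance of their start from that of Farsa in Mb, with values limited to 3 in either direction and the 4 members in red. Farsa, at -1.70, sits among genes that are lower in KO, while Aars, at 0.65, and Kars, at 0.35, sit among genes that are mostly higher.

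The multi-synthetase complex was the group with the highest median. It holds the bifunctional glutamyl-prolyl enzyme Eprs, the enzymes Iars, Lars, Mars, Qars, Rars, Kars and Dars, and the scaffold proteins Aimp1, Aimp2 and Eef1e1. Of these 11 genes 7 were higher in KO and 4 lower, with a median log2 difference of 0.11 and a range from -0.12 for Iars to 0.35 for Kars. None was past 1.5-fold in either direction. Of all genes past the filter, 49.3% were lower by any amount, and past 1.5-fold 7.68% were higher and 7.5% lower. Their summed level was 614 FPKM in WT and 658 FPKM in KO. Aimp1, the scaffold that also serves as a secreted cytokine after release, was 52.7 and 59.0 FPKM. Aimp2, on which assembly of the complex depends, was 64.4 and 68.4 FPKM. Eef1e1, known as AIMP3, was the lowest member of the complex in both libraries, at 17.0 and 16.7 FPKM. Lars, the leucyl enzyme and a reported leucine sensor of the mTORC1 pathway, was 44.4 and 42.3 FPKM, a log2 difference of -0.069. After subtraction of neighbour medians the median of the complex was -0.021, so the direction of this small difference depends on that step.

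The 12 cytosolic enzymes outside the complex had a median of -0.086, with 3 higher and 9 lower in KO, where 49.3% of all genes were lower. The most abundant members of the whole family are among them. Vars, the valyl enzyme, which binds the elongation factor 1 complex, ranked 1 in both libraries at 157 and 149 FPKM. Gars, the glycyl enzyme, followed at 139 and 129.6 FPKM, and Nars, the asparaginyl enzyme, at 139 and 126 FPKM. Their log2 differences were -0.070, -0.10 and -0.14, so the same 3 genes led the family in both libraries. Hars, the histidyl enzyme and target of the anti-Jo-1 antibodies of myositis, was 66.7 and 54.4 FPKM, a log2 difference of -0.29. Its start lies 197 bases from that of the mitochondrial enzyme Hars2 on the opposite strand, and Hars2 was also lower in KO, at 11.0 and 9.39 FPKM, a log2 difference of -0.21. The annotated gene bodies of the pair overlap at their 5′ ends.

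**Figure D3:**
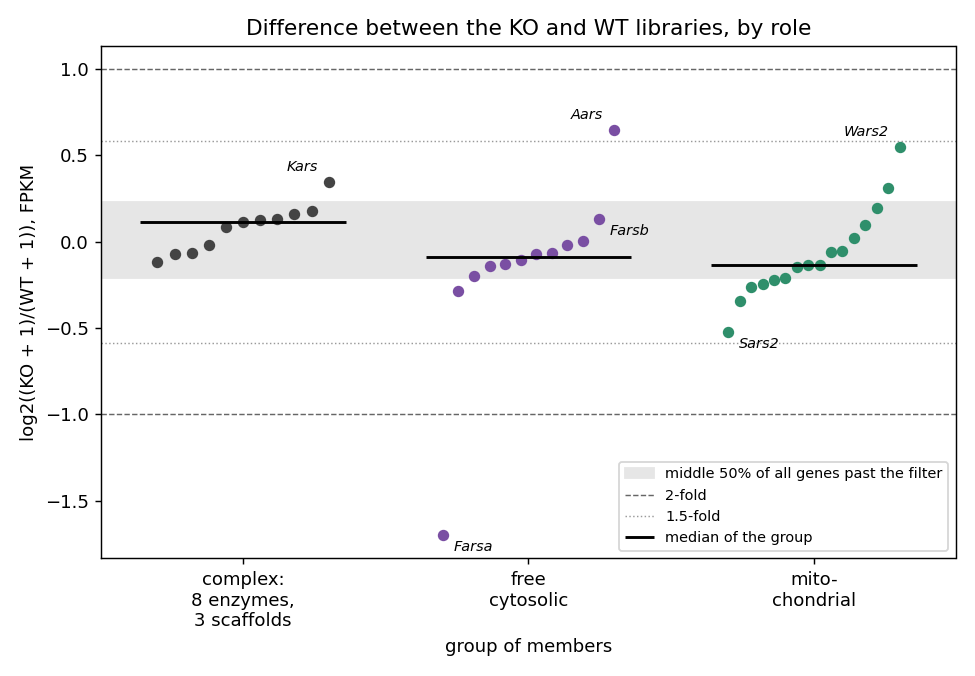
Log2((KO + 1)/(WT + 1)) of each member, in ascending order within 3 groups, with the group's median as a bar, the middle 50% of all genes past the filter in grey and lines at 1.5-fold and 2-fold. The medians are 0.11 for the complex, -0.086 for the free cytosolic enzymes and -0.13 for the mitochondrial enzymes, and Farsa lies alone at -1.70.

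Mitochondrial enzymes were lower in KO in 11 of 16 cases, against 49.3% of all genes past the filter, with a median log2 difference of -0.13. Their summed level was 176 FPKM in WT and 156 FPKM in KO. None was past 1.5-fold, against 7.68% of all genes higher and 7.5% lower, shares that leave few calls for 16 genes. All genes in the same range of levels had a median of 0.00075. The 3 most abundant were lower in KO without exception. Iars2, the isoleucyl enzyme, was 30.5 and 25.6 FPKM, Yars2, the tyrosyl enzyme, was 29.4 and 25.1 FPKM, and Tars2, the threonyl enzyme, was 27.2 and 22.5 FPKM. Iars2 shares its neighbourhood with Eprs, whose start lies 33489 bases away on the opposite strand and which was higher in KO, at 57.5 and 63.1 FPKM. Lars2, the leucyl enzyme, was 10.0 and 9.04 FPKM, and Aars2, the alanyl enzyme, was 6.29 and 7.35 FPKM.

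The 2 mitochondrial enzymes nearest to the 1.5-fold limit, picked after their values were seen, differed in opposite directions. Sars2, the seryl enzyme, was 8.89 FPKM in WT and 5.89 FPKM in KO, a ratio of 0.663 and a log2 difference of -0.52. Wars2, the tryptophanyl enzyme, was 3.22 and 5.17 FPKM, a ratio of 1.61 and a log2 difference of 0.55. Both ratios pass 1.5-fold without the pseudocount, so at these low levels the call depends on it. Wars2 was the member furthest above its neighbours, whose median was 0.0072, and it stayed at 0.54 after subtraction.

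Levels set the compartments apart in both libraries. For all 17 pairings of a cytosolic gene with a mitochondrial gene for the same amino acid, the cytosolic gene had the higher FPKM in WT and in KO. The gap was smallest for tyrosine, where Yars was 1.14 times Yars2 in WT and 1.34 times in KO. It was widest for asparagine, where Nars was 67.6 and 60.1 times Nars2, the lowest member of the family at 2.06 and 2.10 FPKM. The ratio of the pair differed most between the libraries for phenylalanine, with Farsa at 8.00 times Fars2 in WT and 2.67 times in KO, and for tryptophan, with Wars at 11.2 times Wars2 in WT and 6.08 times in KO. Mitochondria have no glutaminyl enzyme of their own and instead convert glutamate on the tRNA with the amidotransferase subunits Gatb, Gatc and Qrsl1. These were at 2.84 and 3.42 FPKM, 14.6 and 13.4 FPKM, and 6.55 and 8.00 FPKM. Ears2, which charges that tRNA with glutamate, was 3.61 and 3.93 FPKM.

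The ATF4 pathway was examined because it sets the level of many of these genes. The 12 enzymes listed as raised by ATF4 had a median log2 difference of -0.069, with 4 higher and 8 lower in KO, and only Aars past 1.5-fold. The other 8 cytosolic enzymes had a median of 0.025. Of the 5 genes whose promoter stretches are printed above, Aars was at 0.65, Gars at -0.10, Iars at -0.12, Tars at -0.018 and Yars at 0.0034. Atf4 itself was 413 FPKM in WT and 282 FPKM in KO, a log2 difference of -0.55, and the genes within 5 Mb of it had a median of -0.37. The list of 26 genes made of Atf4 and genes known as its targets had a median of 0.029, with 14 higher and 12 lower. Past 2-fold, 1 of the 26 was higher and 0 were lower, against 2.84% and 3.43% of all genes past the filter. That gene was Cth, which makes cysteine from cystathionine, at 1.32 and 4.45 FPKM, a log2 difference of 1.23. Past 1.5-fold Sesn2, an inhibitor of mTORC1 that senses leucine, joined it at 6.42 and 10.5 FPKM. That made 2 of the 26 higher and 0 lower, against 7.68% and 7.5% of all genes, so the counts were near these shares or below them. Asns, the asparagine synthetase that is among the best known targets, was 99.9 and 77.1 FPKM. Trib3, an inhibitor of ATF4 that ATF4 induces, was 8.99 and 11.5 FPKM.

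**Figure D4:**
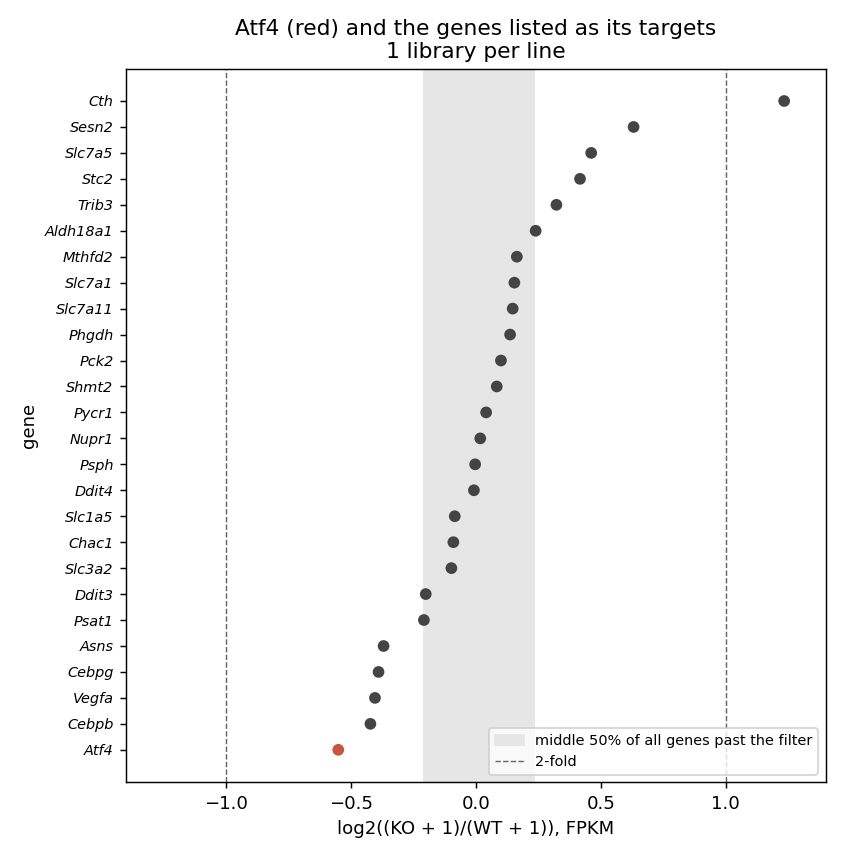
Log2((KO + 1)/(WT + 1)) of Atf4, in red, and of the other 25 genes of the list, with the middle 50% of all genes past the filter in grey and dashed lines at 2-fold. Atf4 has the lowest value, -0.55, and Cth, at 1.23, is the one gene past 2-fold.

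The eIF2 alpha kinase list holds GCN2, which uncharged tRNA activates, together with related kinases and other genes of the pathway. None of its 9 genes was past 1.5-fold, against 7.68% of all genes higher and 7.5% lower. Their median was -0.043. Eif2ak4, which encodes GCN2, was 5.85 and 6.62 FPKM, and its coactivator Gcn1, listed under the older symbol Gcn1l1, was 23.6 and 29.9 FPKM. Impact, which restrains GCN2, was 42.2 and 38.9 FPKM. Ppp1r15a, the inducible subunit of the phosphatase that reverses the kinases, was 24.0 and 16.6 FPKM, the lowest log2 difference of the list at -0.51. Of 17 genes listed as partners in the charging, editing or delivery of tRNA, 7 were higher and 10 lower in KO. None was past 1.5-fold, against 7.68% of all genes higher and 7.5% lower. Eef1a1, which carries charged tRNA to the ribosome, was 5105 and 4869 FPKM, and Tufm, its mitochondrial counterpart, was 88.2 and 75.2 FPKM. Pstk, a kinase in the making of selenocysteyl-tRNA, had the highest log2 difference of the 17 genes, 0.58, at 11.6 and 17.9 FPKM. Its ratio of 1.54 without the pseudocount is past 1.5-fold. In the amino acid sensing list 6 of 8 genes passed the filter. Past 2-fold 0 were higher and 1 lower in KO, against 2.84% and 3.43% of all genes. Past 1.5-fold 1 was higher, Sesn2, and 2 were lower, against 7.68% and 7.5%, shares that leave few calls for 6 genes. The Rag GTPases Rraga and Rragc, through which amino acids activate mTORC1, were 50.4 and 49.6 FPKM and 82.9 and 79.5 FPKM. Sesn3 was 3.03 and 0.779 FPKM, a log2 difference of -1.18, and Castor1, an arginine sensor, was 3.29 and 1.33 FPKM, a log2 difference of -0.88.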

How the data were processed

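Per the labels, polyadenylated RNA of 1 WT and 1 Gne KO culture of C2C12 cells was sequenced. The kit and sequencer differ between sources: the sample description names an Illumina kit and the methods an MGI kit. For each library the authors deposited a list of gene symbols with values of no named unit, taken here as FPKM because the totals differ between the libraries. A TPM table restricted to these genes would give the same ratios up to 1 factor per library. The submitters' processing notes name Trim Galore 0.6.6, STAR 2.7.9a and RSEM 1.3.3 with GRCm38, whereas the methods name GRCm39. The files hold no coordinates, so gene positions were taken from GENCODE vM39 on GRCm39 and promoters from RefSeq on GRCm38.p6, and neither was converted. The number of reads is unknown, and the commonest KO to WT ratio of 406 genes at 0.02 to 0.1 FPKM, where single reads would show, was 1.15.

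Of 21853 rows, 24 repeated a symbol, and the one with the higher mean was kept. Fold changes used a pseudocount of 1 and a mean of at least 1 FPKM. No statistical test was possible with 1 library per group, so lists are given by counts and medians beside those of all genes past the filter. Neighbours are genes past the filter with a start within 5 Mb, among 10347 genes with a position. The procedure was tested on simulated data. Values are given for every member past 1.5-fold, for the 3 most abundant of each subgroup, for the scaffold proteins and for the leucyl, glycyl and alanyl enzymes, others being named as examples of their role after their values were seen. The members and lists were chosen with earlier results of these data known. Protein sequences were not used here. Alternatives were pseudocounts of 0.1 and 5, a filter at 5 FPKM or none, scaling by the median of ratios or to equal totals, and subtraction of neighbour medians. Python 3.11.15, numpy 2.4.6, pandas 2.3.3 and matplotlib 3.10.9 were used.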

Additional observations from a re-analysis of the deposited data

How the results depend on the processing

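With 1 library per line, leaving out a replicate was not possible. No paired analysis was possible because each line has a single library and nothing was tested. Counts were held to a limit of 1.5 times, medians and single genes to 0.1 on the log2 scale. With a pseudocount of 0.1, 2 members were past 1.5-fold higher and 2 lower, as Wars2 and Sars2 joined Aars and Farsa. After subtraction of the median of genes within 5 Mb, 0 members were past 2-fold lower, and 0 were past 1.5-fold higher and 0 lower. The median of the complex was then -0.021. The other 91 of 97 values of counts and medians stayed within these limits. The 13 values obtained without a filter are among the 91. They could not differ, because all genes of these lists had already passed the filter. The limit of 0.1 is wider than several of the medians, so a change of sign can stay within it. The median of the ATF4 list, 0.029 as reported, was -0.0030 with the filter at 5 FPKM and -0.023 after subtraction of neighbour medians. The cytosolic minus mitochondrial difference was 0.069 as reported and 0.15 with the filter at 5 FPKM. Of 125 values of single members under the alternatives, 10 moved, 7 of them on subtraction of neighbour medians and 3 for Wars2 and Sars2 on a change of pseudocount. These values cover 18 of the members, and a change of filter could not alter any of them. A change of sign was looked for only in Farsa and Aars, the members past 1.5-fold as reported, and neither changed sign. Aimp1 went from 0.16 to -0.0032 on subtraction of neighbour medians. Scaling used factors of 0.995 and 0.990, so close to 1 that no median or single gene could move by 0.1. The counts did not move either, and this agreement says little about stability. Leaving out the members on chromosome 8, chosen after the data were seen, moved none of the 6 medians for which it was run beyond 0.1, those of all members, the cytosolic, mitochondrial and free cytosolic enzymes and the complex, and the difference between the cytosolic and mitochondrial medians. Depth is unknown, which limits what can be read from the members below about 5 FPKM.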
